A study of Mus musculus with 6 samples.

Results

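The phagocyte NADPH oxidase and the enzymes that dispose of its products were followed in 9 genes of a deposited FPKM table of 54532 genes. They were taken by gene symbol: 5 oxidase subunits (Cybb, Cyba, Ncf1, Ncf4 and Rac2) and 4 clearing enzymes (Sod1, Sod2, Cat and Gpx1). All 9 were found, and all 9 passed the filter of a mean of at least 1 FPKM that left 9443 genes to be tested. The samples were primary mouse bone marrow-derived macrophages (BMMs), cells that mature from marrow precursors in culture. One group carried the NSUN2-KO label and the other the NC label, with 3 libraries each, whose values are given in order of replicate number, and NSUN2 is an RNA methyltransferase that forms 5-methylcytosine. Both groups had been driven to the inflammatory M1 state with LPS and IFN-γ, and unstimulated cells were not analysed here. The labels call the 3 libraries of a group biological replicates, whereas the design text of the series speaks of 2 per condition. How the knockout was made, what NC abbreviates, and the strain, age and animal behind each library are not stated by the labels, so the spread between libraries may be partly technical.

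The NADPH oxidase is the enzyme with which phagocytes make superoxide at the membrane of the phagosome. Its catalytic core is a membrane pair, gp91phox and p22phox, which is silent until cytosolic subunits and a Rac GTPase dock on it and electrons pass from NADPH to oxygen. Superoxide dismutases turn superoxide into hydrogen peroxide, and catalase, glutathione peroxidases and peroxiredoxins remove the peroxide. Loss of an oxidase subunit underlies chronic granulomatous disease, in which macrophages and neutrophils engulf microbes but kill them poorly.

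Libraries held 35019033 to 45636131 reads, recovered from the FPKM values, so each of the 9 genes rested on 1254 to 107322 reads per library. Nsun2 measured 1.88, 2.04 and 1.84 FPKM across the NC libraries and 0.967, 1.36 and 0.863 FPKM across the knockout libraries, lower in every knockout library but not absent (log2 fold change of FPKM + 1 -0.51, limma adjusted p = 0.0228, and 0.0532 to 0.0848 without NC replicate 1, 2 or 3 or NSUN2-KO replicate 1 or 3, and 0.113 with no filter on low values). At this low level the fold depends on the pseudocount, with a log2 fold change of -0.82 at a pseudocount of 0.1 and -0.19 at 5. The groups also differed in sex-linked genes: Ddx3y and Eif2s3y had 0 reads in each NSUN2-KO library and 5.34 to 6.95 FPKM in NC, and Xist lay at 14.0 to 15.5 FPKM in NC and 29.4 to 31.8 FPKM in NSUN2-KO. Sex chromosome content and genotype therefore cannot be told apart in any result here, the X-linked gene Cybb included. All 9 macrophage markers were tested, and their summed level was 3954 to 4041 FPKM in NC and 3390 to 3428 FPKM in NSUN2-KO, with 1 marker higher (Cd14) and 4 lower (Lyz2, Cd68 and Fcgr1 among them), where 8.49% of all tested genes passed. Most of the difference in that sum was Lyz2, at 1736 ± 31.2 FPKM in NC against 1163 ± 47.1 FPKM in the knockout. The neutrophil list summed to 181.3 to 187.2 FPKM in NC and 170.2 to 182.4 FPKM in NSUN2-KO, with 7 of 16 genes tested, 1 higher and 3 lower, and Elane and Retnlg at 0 reads in all 6 libraries. In the erythroid list, whose cells are rich in catalase and Gpx1, 5 of 7 genes, the globin genes Hbb-bs, Hbb-bt, Hba-a1 and Hba-a2 among them, had 0 reads in every library. A count of 0 allows up to 3 reads per library. Summed dendritic cell markers were 6.14 to 7.49 FPKM in NC and 9.33 to 10.4 FPKM in NSUN2-KO, and those of eosinophils, basophils and mast cells 0.109 to 0.598 and 0.680 to 1.13 FPKM. The T and NK cell list lay at 0.0746 to 0.253 and 0.135 to 0.257 FPKM, the B cell list at 0.0940 to 0.364 and 0.230 to 0.294 FPKM, and the cycling list at 1.27 to 1.59 and 1.24 to 1.27 FPKM. The part of these differences in the results below was not tested.

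Gpx1, Cybb and Cyba were abundant transcripts in these cells, with ranks of 106, 86 and 108 among the 54532 genes by mean FPKM. In NC, Gpx1 averaged 410.9 ± 20.1 FPKM, Cybb 401.7 ± 14.3 FPKM and Cyba 391.2 ± 14.7 FPKM (SD, n = 3), and at the deposited gene lengths these 3 could not be ordered because their libraries overlapped. Rac2 followed at 172.1 ± 3.98 FPKM, Ncf1 at 97.5 ± 0.243 FPKM, Ncf4 at 70.7 ± 1.48 FPKM, Cat at 53.1 ± 1.39 FPKM, Sod2 at 49.5 ± 1.67 FPKM and Sod1 at 8.89 ± 0.638 FPKM. In NSUN2-KO the order changed at 2 places. Cybb stood alone at the top, with Cyba and Gpx1 overlapping below it, and Sod2 lay above Cat. FPKM is a level per gene length, and the low level of Sod1 depends on the length used. The table counts 3970 bases for Sod1, which in the GENCODE vM21 annotation is the joined length of 2 transcripts, one of them with retained introns, whereas its coding transcript has 641 bases. Had all reads come from that transcript, Sod1 would have measured 55.1 ± 3.95 FPKM in NC against 62.8 ± 1.27 FPKM in the knockout, next to Cat. For the other 8 genes the table's length was 1 to 1.71 times that of a coding transcript, and on the coding transcript of Sod2 its level would be 84.5 ± 2.85 FPKM in NC, above Cat in both groups. A gene's length cancels in the ratio of its FPKM between groups, provided both groups use the same transcripts. In the test it does not cancel fully, because 1 FPKM is added to each value. The log2 fold change of Sod1 was 0.17 with 1 FPKM added, 0.19 with 0.1 and 0.12 with 5.

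**Figure D1:**
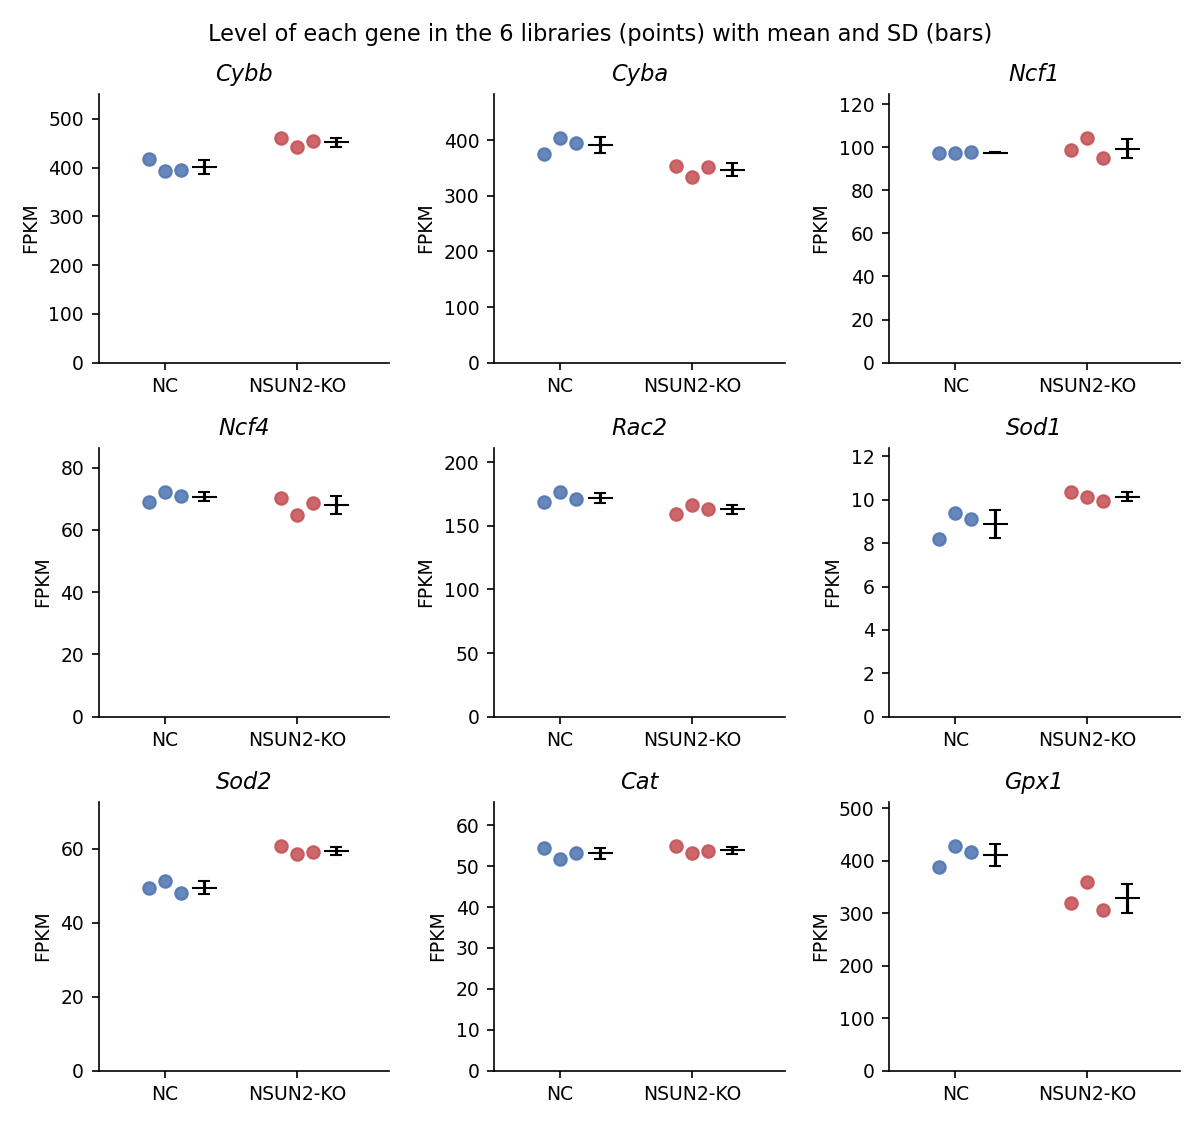
FPKM of each of the 9 genes (y axes, each from 0) in the 3 NC and 3 NSUN2-KO libraries (points), with the group mean and SD (bars). Cybb, Sod1 and Sod2 were higher in every NSUN2-KO library than in any NC library, Cyba, Rac2 and Gpx1 were lower, and Ncf1, Ncf4 and Cat overlapped.

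The design sets M1 macrophages labelled NSUN2-KO against those labelled NC. Of the 9 genes, Sod2 and Cybb rose, Gpx1 and Cyba fell, and 5 did not pass the test (limma on log2(FPKM + 1), Benjamini-Hochberg adjusted over all 9443 genes, threshold 0.05). In these 4 genes the knockout mean was 80.01% to 120.0% of the NC mean. Among all tested genes 8.49% passed, 4.19% higher and 4.3% lower, so 4 of 9 is a larger share than the background, but the genes were chosen with earlier results known. That background depends on which genes are tested. With a mean of at least 5 FPKM, which all 9 genes reach, 863 of 5410 genes passed. With protein-coding genes only, 1021 of 8521 passed. Groups did not overlap in 6 of the 9 genes, against 31.1% of all tested genes (14.4% higher and 16.7% lower).

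**Figure D2:**
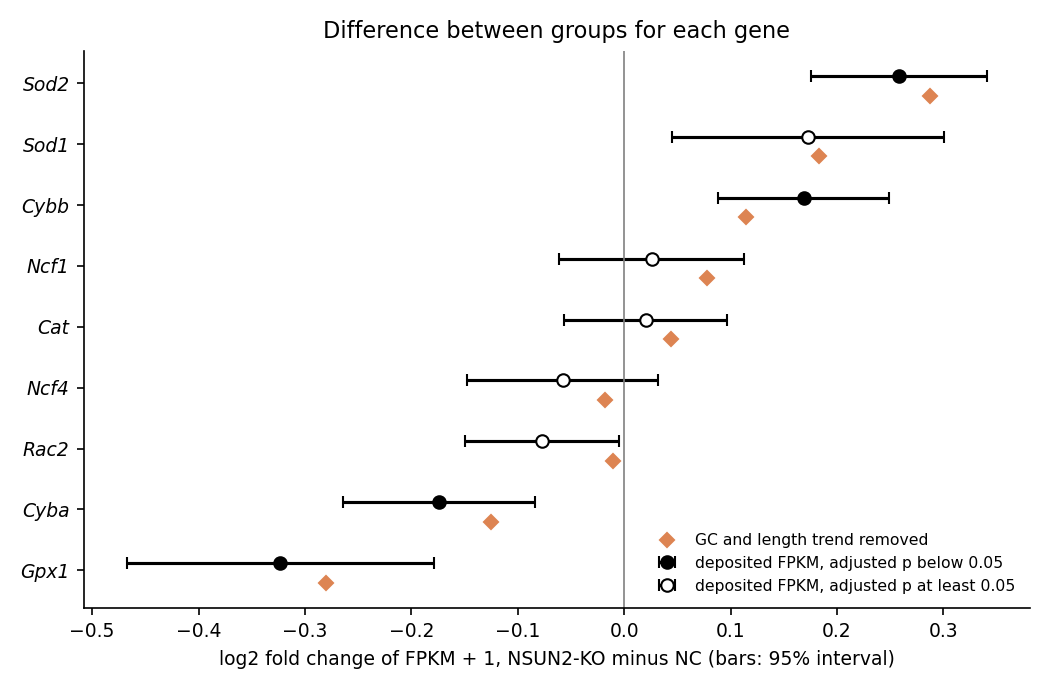
Log2 fold change of FPKM + 1, NSUN2-KO minus NC (x axis), for each of the 9 genes (y axis), with 95% intervals. Filled circles passed the adjusted threshold, and diamonds show the value after a fitted trend over GC and gene length was taken out of every library: Sod2 moved from 0.26 to 0.29 and Cybb from 0.17 to 0.11.

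Cybb and Cyba, which encode the 2 chains of the membrane core, went in opposite directions. Cybb encodes gp91phox, the heme- and flavin-bearing chain through which electrons flow (ENSMUSG00000015340, GRCm38 chromosome X, 9435252 to 9487771, minus strand). It measured 418.3, 392.6 and 394.4 FPKM across the NC libraries and 459.8, 441.2 and 453.7 FPKM across the knockout libraries. The lowest NSUN2-KO library lay above the highest NC library. The mean rose to 451.6 ± 9.49 FPKM from 401.7 ± 14.3 FPKM (limma adjusted p = 0.0264, log2 fold change 0.17, SE 0.03), and the 95% interval ran from 6.32% to 18.8% higher. Cyba encodes p22phox, the partner that stabilises gp91phox and offers the docking site for p47phox (ENSMUSG00000006519, chromosome 8, 122424776 to 122432930, minus strand). It measured 374.8, 403.3 and 395.3 FPKM across the NC libraries and 354.3, 333.2 and 352.2 FPKM across the knockout libraries. Each NSUN2-KO library lay below each NC library. The mean fell to 346.5 ± 11.6 FPKM from 391.2 ± 14.7 FPKM (limma adjusted p = 0.0339, log2 fold change -0.17, SE 0.04). Both calls were close to the threshold. The call for Cybb was lost when NC replicate 2 was left out (adjusted p = 0.0858), or NC replicate 3 (0.110), or knockout replicate 1 (0.107) or 3 (0.0604), and that for Cyba without NC replicate 2 (0.105), NC replicate 3 (0.125) or NSUN2-KO replicate 1 (0.0857), 2 (0.0840) or 3 (0.0574), and both calls went with no filter on low genes (0.118 and 0.145) or the mean-variance trend was dropped (0.0810 and 0.0913).

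Because both chains are needed for the heterodimer, their ratio within a library was also taken, a measure chosen after their values were seen. Cybb over Cyba was 1.12, 0.973 and 0.998 in NC replicates 1 to 3 and 1.30, 1.32 and 1.29 in NSUN2-KO replicates 1 to 3. The NC libraries lay near equal FPKM, and the NSUN2-KO libraries held about 1.30 Cybb for each Cyba with an SD of 0.0186. The level of the ratio depends on the lengths used: on the coding transcripts it was 0.901 ± 0.0667 in NC against 1.14 ± 0.0163 in the knockout. That the groups do not overlap in the ratio follows from the separation of each gene and is not a further result. A change of length cannot alter it. Among NC libraries, replicate 1 had both the highest Cybb and the lowest Cyba. The FPKM summed over the 5 subunits was 1133 ± 7.47 in NC and 1128 ± 17.0 in NSUN2-KO, so the sum differed by less than the spread between libraries.

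**Figure D3:**
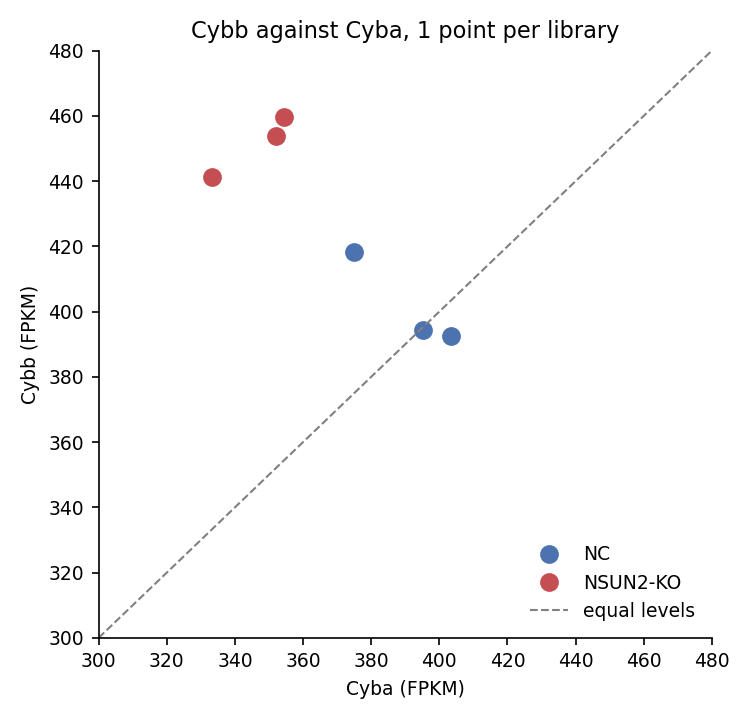
Cybb (y axis) against Cyba (x axis), both in FPKM on axes that start at 300, with 1 point per library and a dashed line of equal levels. The 3 NSUN2-KO libraries sit above the line at ratios of 1.29 to 1.32, and the NC libraries at 0.973 to 1.12.

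The promoters of the 4 genes that changed are shown so that the pairs that rose and fell can be compared. Each is the 250 bases before the RefSeq start (GRCm38.p6), 5′ to 3′ on the gene's strand, and 7 of the 9 genes had an entry (not Ncf4 and Rac2). They lie at chrX:9469325-9469574 (minus) for Cybb, chr8:122432941-122433190 (minus) for Cyba, chr17:13007589-13007838 (plus) for Sod2 and chr9:108338830-108339079 (plus) for Gpx1. The RefSeq start can differ from the edge of the gene span given for each gene. The Cybb and Sod2 windows lie inside that span, the Gpx1 window crosses its edge, and the Cyba window lies before it. Capitals mark matches, on either strand, to 4 short motifs: GAS (TTCNNNGAA), a PU.1 pattern (GAGGAA), the antioxidant response element core (TGACNNNGC) and NF-kB (GGG, any 5 bases, CC).
Cybb: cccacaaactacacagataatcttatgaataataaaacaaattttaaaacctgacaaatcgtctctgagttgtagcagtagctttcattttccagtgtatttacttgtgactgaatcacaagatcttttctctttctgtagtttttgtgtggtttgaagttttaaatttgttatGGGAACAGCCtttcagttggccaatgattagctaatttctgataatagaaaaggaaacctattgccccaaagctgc
Cyba: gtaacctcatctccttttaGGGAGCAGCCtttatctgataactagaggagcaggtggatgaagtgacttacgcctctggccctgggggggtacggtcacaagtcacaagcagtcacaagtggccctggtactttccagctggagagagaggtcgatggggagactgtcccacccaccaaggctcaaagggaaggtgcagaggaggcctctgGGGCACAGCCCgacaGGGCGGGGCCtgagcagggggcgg
Sod2: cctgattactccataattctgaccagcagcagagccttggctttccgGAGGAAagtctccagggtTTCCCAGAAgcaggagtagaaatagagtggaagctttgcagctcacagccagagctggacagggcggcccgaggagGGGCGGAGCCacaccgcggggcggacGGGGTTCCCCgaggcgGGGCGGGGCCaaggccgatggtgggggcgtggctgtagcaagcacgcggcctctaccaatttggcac
Gpx1: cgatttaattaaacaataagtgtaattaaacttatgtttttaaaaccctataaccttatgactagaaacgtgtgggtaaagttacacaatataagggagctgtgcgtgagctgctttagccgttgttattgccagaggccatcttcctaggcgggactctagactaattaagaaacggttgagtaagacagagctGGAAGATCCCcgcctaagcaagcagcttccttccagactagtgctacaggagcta
The NF-kB pattern was present in all 4, and also in 45.8% of the 32851 RefSeq promoters of the same length. The Sod2 window alone of the 4 held a GAS match (TTCCCAGAA, 185 to 177 bases before the start, present in 7.02% of all promoters). It alone also matched the PU.1 pattern (GAGGAA, 203 to 198 bases before the start, present in 23.3% of all). Only the exact letters GAGGAA were searched, so the windows of Cybb, Cyba and Gpx1 may hold other forms of a PU.1 site. None of the 4 windows held the antioxidant core, which 10.2% of all promoters hold and the Sod1 window does. GC content was 34% in the Cybb window, 60% for Cyba, 63.6% for Sod2 and 42% for Gpx1. Matches may overlap, as 2 NF-kB matches in Cyba do, and a match is a description of the letters only.

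The cytosolic subunits did not pass the test. Ncf1 encodes p47phox, the organiser that carries the cytosolic complex to p22phox (ENSMUSG00000015950, chromosome 5, 134220053 to 134229625). It measured 97.3, 97.4 and 97.8 FPKM across the NC libraries and 98.9, 104.1 and 95.03 FPKM across the knockout libraries, with NSUN2-KO libraries on both sides of NC. Its log2 fold change was 0.03 (limma adjusted p = 0.719), with an interval from -4.14% to 8.11%. Ncf4 encodes p40phox, which binds a phosphoinositide of the phagosome membrane (ENSMUSG00000071715, chromosome 15, 78244801 to 78262580). It measured 69.1, 72.1 and 70.9 FPKM across the NC libraries and 70.3, 64.7 and 68.7 FPKM across the knockout libraries, again overlapping (log2 fold change -0.06, adjusted p = 0.402, interval -9.74% to 2.25%). Rac2 is the GTPase partner found in blood cells (ENSMUSG00000033220, chromosome 15, 78559167 to 78572783). It measured 168.5, 176.3 and 171.5 FPKM across the NC libraries and 159.5, 166.5 and 163.1 FPKM across the knockout libraries. The Rac2 groups did not overlap, yet the difference did not pass (log2 fold change -0.08, adjusted p = 0.171, interval -9.87% to -0.334%). In all 3 the upper bound lay below the Cybb mean, which stood at 112.4% of NC. The interval of Cybb itself, from 6.32% to 18.8%, overlapped that of Ncf1, and the genes were not tested against each other. Gtf2ird2 shares 408 exon bases with Ncf1 on the opposite strand, and without a strand setting reads there could belong to either gene.

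Other parts of the complex did not pass either. A list of other oxidase components, homologues and chaperones held 15 genes, of which 6 were tested and 0 passed in limma (0 higher and 2 lower at an unadjusted p below 0.05, and 0 higher and 1 lower with limma voom on recovered reads). Over all tested genes 25.5% had an unadjusted p below 0.05 (11.8% higher and 13.7% lower) and 14.9% passed with limma voom (8.25% higher and 6.61% lower), beside the 8.49% of the main test. The list's median log2 fold change was -0.07, against -0.01 over all tested genes. Rac1, the widely expressed Rac, measured 67.9 ± 1.69 FPKM in NC against 67.4 ± 1.20 FPKM in the knockout (SD, n = 3). Nrros, a negative regulator that promotes loss of gp91phox, measured 18.7 ± 0.719 FPKM in NC against 16.4 ± 0.741 FPKM in the knockout, and each NSUN2-KO library lay below NC (log2 fold change -0.18, adjusted p = 0.0592). Cybc1, a chaperone of the gp91phox and p22phox pair, measured 48.8 ± 0.932 and 45.5 ± 1.06 FPKM (adjusted p = 0.114). Hvcn1, the proton channel that balances the charge the oxidase moves, was low at 1.89 ± 0.151 and 1.66 ± 0.273 FPKM. The alternative catalytic subunits Nox3, Nox4, Duox1 and Duox2 had 0 reads in all 6 libraries, and Nox1 had at most 14 reads in a library.

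The clearing enzymes went both ways. Sod2 encodes the manganese dismutase of the mitochondrial matrix, a known target of inflammatory signalling (ENSMUSG00000006818, chromosome 17, 13006846 to 13040063, plus strand). It measured 49.3, 51.3 and 47.9 FPKM across the NC libraries and 60.7, 58.5 and 59.1 FPKM across the knockout libraries. The gap between the groups was wider than the range within either group. Sod2 rose to 59.4 ± 1.12 FPKM from 49.5 ± 1.67 FPKM (limma adjusted p = 0.00615, log2 fold change 0.26, SE 0.04), an increase with an interval from 13.0% to 26.6%. It was the only one of the 9 genes to pass in every alternative fit that was run, including the 6 fits that each left out a library (adjusted p 0.0121 to 0.0370). Sod1, the copper and zinc dismutase of the cytosol (ENSMUSG00000022982, chromosome 16, 90220754 to 90226329), measured 8.17, 9.39 and 9.11 FPKM across the NC libraries and 10.3, 10.1 and 9.93 FPKM across the knockout libraries. All NSUN2-KO libraries lay above NC, but the difference did not pass (log2 fold change 0.17, SE 0.06, adjusted p = 0.0991). With limma voom on recovered reads it did (log2 fold change 0.20, adjusted p = 0.0452).

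Gpx1 had the largest log2 fold change in size of the 9 genes, except that Sod2 was slightly ahead (0.29 against -0.28) once the dependence on GC content and length was taken out. It encodes the cytosolic selenoenzyme that reduces hydrogen peroxide with glutathione (ENSMUSG00000063856, chromosome 9, 108338903 to 108340343, plus strand). It measured 388.5, 427.3 and 416.8 FPKM across the NC libraries and 320.4, 359.7 and 306.2 FPKM across the knockout libraries. No NSUN2-KO library reached the lowest NC library. Gpx1 fell to 328.7 ± 27.7 FPKM from 410.9 ± 20.1 FPKM (limma adjusted p = 0.0216, log2 fold change -0.32, SE 0.06), with an interval from -27.7% to -11.7%, a larger absolute change than in 95.4% of tested genes. The call did not survive the removal of NC replicate 2 (adjusted p = 0.0774), NC replicate 3 (0.0762) or NSUN2-KO replicate 1 (0.0812), nor a fit with no filter on low genes (0.117) or with no mean-variance trend (0.0514). Cat encodes catalase, the peroxisomal enzyme that splits peroxide without a reductant (ENSMUSG00000027187, chromosome 2, 103453849 to 103485160, minus strand). It measured 54.5, 51.8 and 53.1 FPKM across the NC libraries and 54.9, 53.1 and 53.7 FPKM across the knockout libraries. The groups overlapped (log2 fold change 0.02, adjusted p = 0.7499), and the interval, from -3.81% to 6.95%, excludes a change as large as that of Sod2 or Gpx1.

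Related enzymes of the same chemistry also went both ways. Of the 4 tested among 10 other dismutase and glutathione peroxidase genes, Gpx4, which reduces lipid peroxides in membranes, fell from 56.2 ± 1.38 to 48.3 ± 3.35 FPKM (log2 fold change -0.22, limma adjusted p = 0.0428), and 0 rose in limma (1 higher and 2 lower at an unadjusted p below 0.05, and 0 and 1 with limma voom, against 8.49%, 25.5% and 14.9% of all tested genes by the 3 rules). Gpx3, Gsr and Ccs did not pass, at 6.94 ± 0.411 and 6.13 ± 0.0316 FPKM, 68.3 ± 1.52 and 72.7 ± 1.65 FPKM, and 5.17 ± 0.653 and 5.19 ± 0.650 FPKM in NC and NSUN2-KO. Sod3, the extracellular dismutase, had at most 16 reads in a library. The Gpx4 call was lost in each of the 6 fits without 1 library (adjusted p 0.0533 to 0.139) and after removal of the GC and length trend (log2 fold change -0.16, adjusted p = 0.142). All 17 peroxiredoxin, thioredoxin and sestrin genes were tested, 2 rose and 1 fell (against 8.49% of all tested genes in either direction), and their median log2 fold change was 0.05. At an unadjusted p below 0.05, 7 were higher and 6 lower, against 25.5% of all tested genes. With limma voom 3 were higher and 3 lower, against 14.9%. Prdx5, a peroxiredoxin of mitochondria, peroxisomes and cytosol, rose from 288.8 ± 15.1 to 344.2 ± 7.52 FPKM (log2 fold change 0.25, adjusted p = 0.0124), a call lost without NSUN2-KO replicate 1 (0.0588). Txnrd1, the reductase that recharges thioredoxin with NADPH, rose from 29.0 ± 0.530 to 33.0 ± 0.427 FPKM (log2 fold change 0.18, adjusted p = 0.0165), lost without NC replicate 3 (0.0780) or NSUN2-KO replicate 1 (0.0668). Glrx, a glutaredoxin, fell from 138.8 ± 1.99 to 125.8 ± 3.45 FPKM (log2 fold change -0.14, adjusted p = 0.0332), a call kept in 1 of the 6 fits without 1 library, that without NSUN2-KO replicate 2 (adjusted p 0.0342 to 0.134 over the 6). Prdx6, which reduces phospholipid peroxides, measured 59.9 ± 1.13 and 54.5 ± 1.77 FPKM (adjusted p = 0.0545).

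The NADPH supply list holds enzymes around NADPH, the electron donor of the oxidase and of glutathione reductase. Of its 12 genes 10 were tested, 3 rose and 1 fell, against 8.49% of all tested genes in either direction, and the median log2 fold change was 0.02. At an unadjusted p below 0.05, 4 were higher and 2 lower, against 25.5% of all tested genes. With limma voom 3 were higher and 1 lower, against 14.9%. Me2, a mitochondrial malic enzyme that works mainly with NAD, rose from 17.3 ± 0.192 to 20.6 ± 0.270 FPKM (log2 fold change 0.24, limma adjusted p = 0.00681) and kept its call in all 6 fits without 1 library. Me1, the cytosolic malic enzyme, rose from 3.32 ± 0.439 to 4.70 ± 0.244 FPKM (log2 fold change 0.40, adjusted p = 0.0249), and Nadk2, the mitochondrial NAD kinase, which makes NADP, from 1.75 ± 0.144 to 2.43 ± 0.160 FPKM (log2 fold change 0.32, adjusted p = 0.0353). H6pd, which makes NADPH inside the endoplasmic reticulum, fell from 9.41 ± 0.255 to 7.40 ± 0.402 FPKM (log2 fold change -0.31, adjusted p = 0.0111). With limma voom the log2 fold changes of Me1 and Nadk2 were 0.53 and 0.48, and at a pseudocount of 5 they were 0.22 and 0.14. Without 1 library, Me1 was called in 2 of 6 fits, Nadk2 in 0 of 6 and H6pd in 5 of 6 (adjusted p = 0.0524 without NC replicate 3). Me1 lost its call without NC replicate 2 (0.0581), NC replicate 3 (0.0721) or NSUN2-KO replicate 1 (0.0811) or 2 (0.0765), and Nadk2 in every such fit (adjusted p 0.0721 to 0.112).

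Of 19 kinases and Rac regulators upstream of the oxidase, 17 were tested, 0 rose and 1 fell in limma, with a median log2 fold change of -0.08 (2 higher and 5 lower at an unadjusted p below 0.05, and 2 and 3 with limma voom, against 8.49%, 25.5% and 14.9% of all tested genes by the 3 rules). Mapk14, the p38α kinase that phosphorylates p47phox, fell from 26.2 ± 0.150 to 23.4 ± 0.723 FPKM (log2 fold change -0.15, limma adjusted p = 0.0387), a call kept only without NSUN2-KO replicate 3 among the 6 fits (adjusted p 0.0475 to 0.145). Pik3cd, Prex1 and Arhgap25 had log2 fold changes of -0.17, -0.14 and -0.13 that did not pass. All 11 transcription factors listed for oxidase and Sod2 genes were tested, 0 rose and 2 fell in limma (2 higher and 3 lower at an unadjusted p below 0.05, and 2 and 3 with limma voom, against the same 8.49%, 25.5% and 14.9%). Spi1, which encodes PU.1, the myeloid factor that drives Cybb and Ncf1, fell from 130.1 ± 4.47 to 115.3 ± 1.12 FPKM (log2 fold change -0.17, adjusted p = 0.0215). Cebpa, a factor of myeloid differentiation, fell from 7.10 ± 0.0972 to 4.89 ± 0.659 FPKM (log2 fold change -0.47, and -0.29 at a pseudocount of 5, adjusted p = 0.0139). Spi1 lost its call without NC replicate 2 (0.0588), NC replicate 3 (0.0776) or NSUN2-KO replicate 1 (0.0828) or 2 (0.0599), and Cebpa without NC replicate 2 (0.0523), NC replicate 3 (0.0543) or NSUN2-KO replicate 1 (0.0521). Irf8, an interferon regulatory factor that acts with PU.1, measured 47.3 ± 2.38 and 42.1 ± 0.860 FPKM (adjusted p = 0.0526), and Elf1 19.4 ± 0.134 and 21.2 ± 0.539 FPKM (adjusted p = 0.0797). In bulk RNA, fewer cells of a type and less RNA per cell cannot be told apart.

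**Figure D4:**
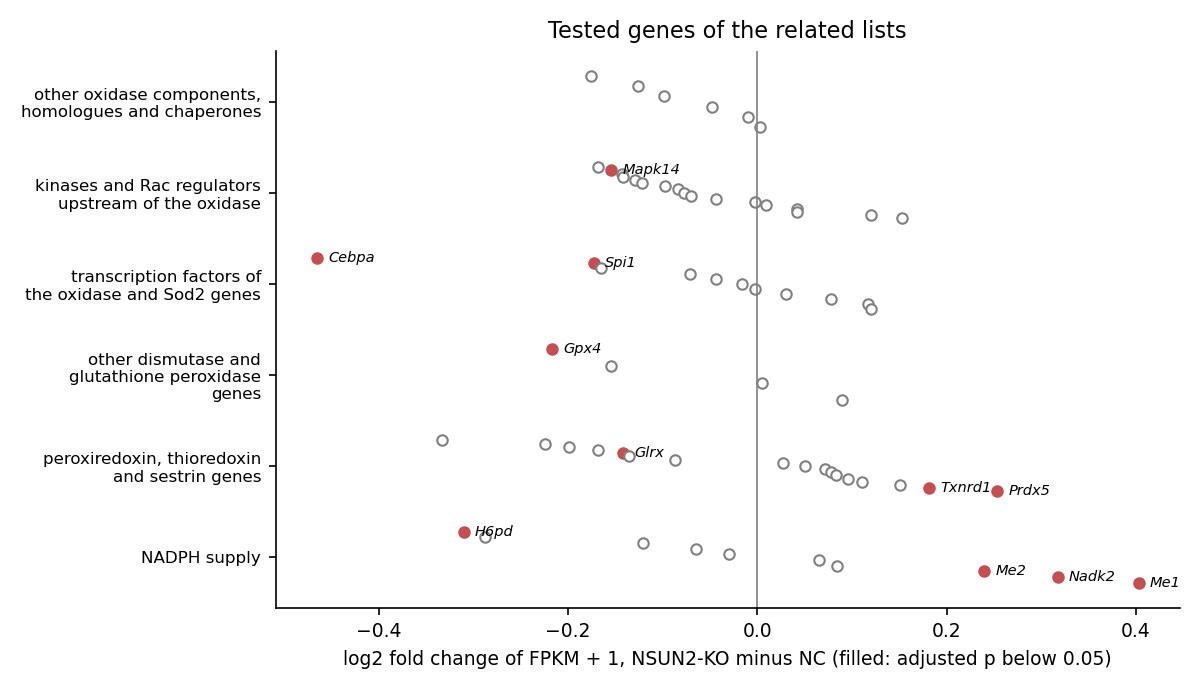
Log2 fold change of FPKM + 1, NSUN2-KO minus NC (x axis), of the 65 tested genes in 6 related lists (y axis), with 1 point per gene. The 11 filled points passed the adjusted threshold, 5 higher and 6 lower, and are named, which is 16.9% of the 65 against 8.49% of all tested genes.

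Over 9433 tested genes transcript GC content and the log2 fold change were correlated with a Spearman rho of -0.37, across genes that are not independent replicates and share the same libraries. Cybb, at 43.2% GC, lies on the side where genes tended to be higher, and Cyba (58.8%), Gpx1 (56.4%) and Rac2 (56.5%) on the side where they tended to be lower. Sod2, at 53.5% against a median of 50.2% over tested genes, was higher on the side where genes tended to be lower. After that dependence and the one on length were fitted and taken out of every library, Sod2 had a log2 fold change of 0.29 (limma adjusted p = 0.00171), Gpx1 -0.28 (adjusted p = 0.0192), Cyba -0.13 (adjusted p = 0.0460), Cybb 0.11 (adjusted p = 0.0536) and Rac2 -0.01 (adjusted p = 0.843). The call for Cybb was thus lost by a narrow margin and Rac2 moved to near 0.

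**Figure D5:**
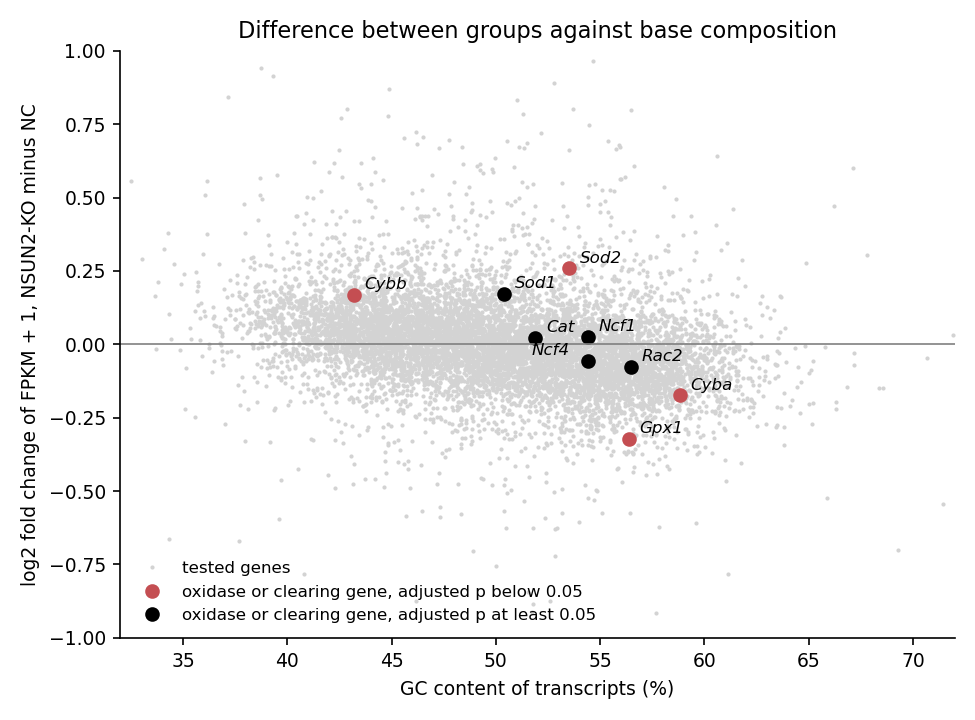
Log2 fold change of FPKM + 1, NSUN2-KO minus NC (y axis), against transcript GC content in percent (x axis) for 9414 tested genes (grey), with 19 genes outside the axes. The 9 genes are named, and red marks those past the adjusted threshold: Cybb lies at low GC, Cyba and Gpx1 at high GC, and Sod2 has the highest log2 fold change of the 9 at 53.5% GC.

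The genes whose values were nearest to those of Cybb over the 6 libraries, as the root mean square difference of centred log2(FPKM + 1) among 8520 protein-coding genes, were Med13 (0.00692), Etnk1 (0.0164) and Lnpep (0.0168). None of them lies on the X chromosome. Med13, Etnk1 and Lnpep had log2 fold changes of 0.16, 0.15 and 0.19, and their GC content was 41.2%, 47.8% and 42.2%. Med13 and Lnpep passed the test (limma adjusted p = 0.0408 and 0.0264), and Etnk1 did not (0.0702). Without 1 library, Med13 and Lnpep were each called in 1 of 6 fits (adjusted p 0.0318 to 0.146 and 0.0232 to 0.102). Genes were picked by closeness over the same 6 libraries, so a fold change near that of Cybb or Sod2 is built into the choice. The nearest to Sod2 were Olfr1396 (0.0178), Aebp2 (0.0204) and Thbs1 (0.0207), with log2 fold changes of 0.26, 0.27 and 0.24. Aebp2 and Thbs1 passed the test (limma adjusted p = 0.0150 and 0.00383), and Olfr1396 did not (0.0736). Without 1 library, Aebp2 was called in 4 of 6 fits and Thbs1 in 6 of 6. Olfr1396 lay near the filter of 1 FPKM, with group means of 1.22 (NC) and 1.65 (knockout). Its log2 fold change was 0.41 at a pseudocount of 0.1 and 0.097 at 5. Over the 286 tested genes on the X chromosome the median log2 fold change was 0.02 and 9.44% passed, against 8.42% of the 9137 autosomal and unplaced genes tested. By direction, 16 X genes were higher and 11 lower, against 376 and 393 of the others. With limma voom these were 32 and 11, against 740 and 611. Log2 fold changes were above 0 in 160 X genes and below in 126, against 4374 and 4763 of the others. The difference between the 2 sets was not tested.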

How the data were processed

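RNA was profiled in 6 libraries of M1-polarised mouse macrophages, 3 per group. The FPKM values were deposited by the authors. Per the submitters' processing notes, CASAVA 1.8, fastp, HISAT2 2.0.5, featureCounts 1.5.0-p3, DESeq2 1.20.0 and GRCm38 (mm10) were used, with settings and strand handling not stated. Whole reads were recovered from the deposited FPKM and gene lengths for 100% of values (tolerance 0.01 reads), and the implied library sizes equalled median-ratio size factors, so the values were already on that scale. Recovered reads covered genes only. Genes averaging 1 FPKM or more entered the test on log2(FPKM + 1) with limma 3.58.1 (R 4.3.3, mean-variance trend), Benjamini-Hochberg adjusted over 9443 genes at 0.05. The script was tested on simulated data. Members and lists were chosen with earlier results of these data known. Named were the 9 genes, Nsun2, Rac1, up to 4 genes per list by smallest unadjusted p, and the 3 genes nearest to Cybb and Sod2. Genes outside that rule (the unexpressed homologues, Sod3 and single markers) were chosen once values were known. Some items that this rule or the lists cover are not reported here. The alternatives are described with the closing observations.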

Additional observations from a re-analysis of the deposited data

How the results depend on the processing

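Of the 9 genes, only Sod2 passed under every alternative run. With no filter on low values 265 genes passed (147 higher and 118 lower) against 802, without the mean-variance trend 526 (254 lower), with limma voom on recovered reads 1403 (779 and 624), and with the GC and length trend removed with the replicate block 465 (262 and 203). Cybb was 0.17 with no filter (adjusted p = 0.118), 0.17 without the trend (0.0810), 0.11 with the GC and length trend removed (0.0536) and 0.11 with the block added (0.110), leaving 0 oxidase subunits higher, as when X and Y genes were left out and Cybb was not tested. Cyba was -0.17 with no filter (0.145), without the trend (0.0913) and with TPM scaling (0.0562), and -0.13 with the GC trend and block (0.0989), leaving 0 lower. Gpx1 was -0.32 with no filter (0.117) and without the trend (0.0514), leaving 0 clearing enzymes lower. Sod1 was 0.20 with voom (0.0452), giving 2 higher. In the related lists, 5 higher became 2 with no filter, 3 at a mean of at least 5 FPKM, 10 with voom and 8 with the GC trend removed, and 6 lower became 1, 10, 12, 2 without the trend, 11 with protein-coding genes only and 2 with the GC trend and block. At a mean of at least 5 FPKM only 50 of the 65 listed genes were tested, and Me1 and Nadk2 were not among them.

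Leaving out each library in turn gave 270 to 595 genes (149 to 312 higher, 121 to 283 lower), 0 to 1 oxidase subunits higher and 0 to 1 lower, 1 to 1 clearing enzymes higher and 0 to 1 lower, and 1 to 4 listed genes higher and 0 to 5 lower. Log2 fold changes ran from 0.15 to 0.20 for Cybb, -0.20 to -0.15 for Cyba, -0.0082 to 0.057 for Ncf1, -0.08 to -0.02 for Ncf4, -0.09 to -0.06 for Rac2, 0.12 to 0.21 for Sod1, 0.24 to 0.28 for Sod2, 0.0020 to 0.04 for Cat, -0.39 to -0.27 for Gpx1, -0.029 to 0.0060 for Rac1 and -0.085 to 0.071 for Ccs. The causes were not tested.

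Samples of the same replicate number did not deviate together (correlations -0.00952, -0.0298 and 0.00343), and unlike numbers gave -0.0359 to 0.0455. The values thus show no sign of pairing by number. Whether samples of the same number were handled together cannot be told from them. With the replicate block 351 genes passed (190 higher and 161 lower), Cybb was 0.17 (adjusted p = 0.0588), Cyba -0.17 (0.101), 0 oxidase subunits were higher and 0 lower, and 2 listed genes were higher and 2 lower. The planned count models were not run, and limma voom was the one fit made on the recovered reads.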
